A study of Mus musculus with 6 samples.

Results

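Genome-wide binding of FXR, the nuclear receptor that senses bile acids (BAs), was examined at 8 genes that encode enzymes of BA synthesis and conjugation. These genes were Akr1d1, Hsd3b7, Slc27a5, Amacr, Acox2, Hsd17b4, Scp2 and Baat. Their peaks were taken by the gene name that the authors' annotation gave each peak, which is that of the nearest transcription start site (TSS). This gave 26 of the 20040 peaks in control liver and 16 of the 12495 peaks in liver lacking hepatocyte Bcl6. FXR ChIP-seq was performed on livers of male C57BL/6 mice. Controls were Bcl6 fl/fl mice, which carry floxed Bcl6 alleles and no Cre (WT below). Bcl6LKO mice carry the same floxed alleles with Alb-cre, whose albumin promoter directs the recombinase to hepatocytes (LKO below). There were 2 ChIP libraries for each genotype and 1 library of input, chromatin taken before the immunoprecipitation. The labels give no age and list no mice with Alb-cre alone, and whole liver was used, so that fewer hepatocytes and less binding per hepatocyte cannot be told apart. ChIP-seq of FXR measures neither RNA nor BCL6, and the loss of Bcl6 was not checked here.

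BAs are made from cholesterol by hydroxylation of the sterol ring, reduction of the ring, shortening of the side chain and coupling to an amino acid. HSD3B7 oxidizes the ring and AKR1D1 gives it the bent shape of a BA. SLC27A5 joins BAs to coenzyme A, and in the peroxisome AMACR, ACOX2, HSD17B4 and SCP2 carry out the steps that remove the end of the side chain. BAAT then attaches taurine or glycine. FXR, activated by BAs and paired with RXR, is known to bind an inverted repeat of AGGTCA with TGACCT after 1 base (IR1). The comparison asked where FXR was bound at these genes, and whether the sites and their relative strength differed between WT and LKO liver.

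Depth differed between the libraries. WT replicate 2 was the shallowest ChIP library, with 2883717 tags, LKO replicate 2 was the deepest, with 22637613 tags, and 86.8% of the pooled WT tags came from WT replicate 1. Peaks had been called on the pooled libraries of a genotype, so that peak counts have no replicate spread. The deposited log2 values were normalized separately for each genotype. The level of a peak is therefore its log2 value minus the median over the 9918 peaks shared by both lists in the same library, and a level of 0 is that of the typical shared peak. WT and LKO levels are given as mean ± SD of 2 libraries, and a difference is called higher or lower only where it exceeded the pooled SD of these 4 libraries. No p-value is given, since 2 against 2 libraries cannot go below 0.333 in a two-sided exact permutation test and the tables share no common scale. Nothing in the labels says how the replicates were made beyond an identifier for each, so the SDs may be technical. FXR peaks lay at 5 of 5 hepatocyte marker genes in both lists and at 0 of 2 Kupffer cell and 0 of 2 stellate cell marker genes. A WT peak lay at 2 of 3 cholangiocyte and 2 of 2 endothelial marker genes, and an LKO peak at 1 of 3 and 0 of 2. Over all protein-coding genes, the share with a peak was 34.6% in WT and 26.5% in LKO. So few marker genes cannot show which cells the signal came from.

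The DNA under 4 of the peaks is shown because the results below turn on them. They are the strongest peak of the set, both copies of a repeat element that differed in opposite directions between genotypes, and a promoter peak at which the genotypes overlapped. Sequences are the forward strand of GRCm38.p6, which has the coordinates of mm10, and are reference sequence over the WT peak. Capitals mark the best match within 100 bp of the peak centre, to IR1 in the second and the third sequence, and in the others to AGGTCA repeated in the same direction 1 base apart (DR1), the element known for HNF4A and RXR pairs. A match is a description of the letters and not a bound site.
Akr1d1 +10.1 kb, chr6:37540159-37540369: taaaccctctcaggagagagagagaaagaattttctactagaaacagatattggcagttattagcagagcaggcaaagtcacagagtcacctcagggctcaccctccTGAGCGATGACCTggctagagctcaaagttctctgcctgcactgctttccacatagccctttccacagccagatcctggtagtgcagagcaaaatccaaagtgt
Akr1d1 +12.9 kb, chr6:37543004-37543214: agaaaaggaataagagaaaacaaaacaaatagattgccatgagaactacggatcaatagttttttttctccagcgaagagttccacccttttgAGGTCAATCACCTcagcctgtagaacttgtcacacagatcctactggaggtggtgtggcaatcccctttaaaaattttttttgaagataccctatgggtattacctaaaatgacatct
Scp2 -12.5 kb, chr4:108130920-108131130: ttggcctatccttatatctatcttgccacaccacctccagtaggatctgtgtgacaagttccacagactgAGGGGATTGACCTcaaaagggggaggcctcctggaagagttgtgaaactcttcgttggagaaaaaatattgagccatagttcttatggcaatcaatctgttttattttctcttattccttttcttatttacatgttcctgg
Acox2 -0.4 kb, chr14:8259317-8259527: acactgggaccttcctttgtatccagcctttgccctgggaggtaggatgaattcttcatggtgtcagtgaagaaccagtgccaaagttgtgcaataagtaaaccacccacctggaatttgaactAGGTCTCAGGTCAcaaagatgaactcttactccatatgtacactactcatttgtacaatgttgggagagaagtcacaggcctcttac

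FXR peaks were assigned to 6 of the 8 enzyme genes in both genotypes. A WT peak was assigned to 7 of 8 genes, compared with 34.6% of 21774 protein-coding genes, and an LKO peak to 7 of 8 genes, compared with 26.5%. Baat had WT peaks only and Hsd3b7 had an LKO peak only. Of the 26 WT peaks, 15 overlapped an LKO peak by at least 1 bp, a share of 57.7% (95% Wilson interval over peaks, 39.0 to 74.5), compared with 49.5% of all WT peaks. Of the 16 LKO peaks, 15 overlapped a WT peak, a share of 93.8% (71.7 to 98.9), compared with 79.4% of all LKO peaks. Both intervals contain the value of the whole list. The 11 WT-only peaks were weaker than the shared ones. Their median strength percentile in the WT list was 41.6, compared with 69.3 for the shared WT peaks of these genes. The same medians over the whole WT list were 29.8 and 72.2. No WT-only peak of the set exceeded the percentile of 62.3, that of the Slc27a5 peak at +2.1 kb.

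**Figure D1:**
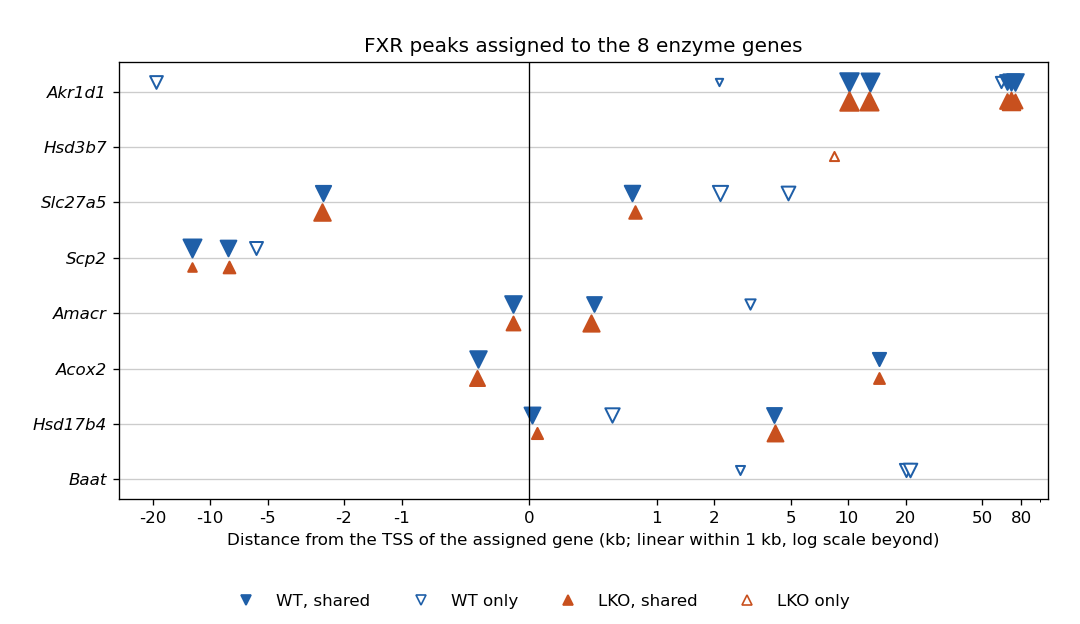
FXR peaks assigned to each of the 8 enzyme genes, by distance from the TSS in kb (linear within 1 kb and logarithmic beyond); blue triangles pointing down are WT peaks, orange triangles pointing up are LKO peaks, filled marks are shared and open marks are in 1 list, and larger marks are stronger within their list. Akr1d1 holds 8 of the 26 WT peaks, Baat has open blue marks only, and Hsd3b7 has a single open orange mark.

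Relative to the shared peaks of each library, the enzyme genes differed in both directions. LKO was higher than WT by more than the pooled SD at 6 of the 15 shared peaks, compared with 33.7% of all shared peaks, and lower at 4 of 15, compared with 29.4%. The remaining 5 lay within the pooled SD. In the same 6 peaks both LKO libraries exceeded both WT libraries (29.8% of all shared peaks), and in the same 4 both LKO libraries lay below both WT libraries (25.2%). With 15 peaks, these counts are near those that the whole list gives. The median LKO minus WT difference was 0.07 on the log2 scale, compared with 0.03 over all shared peaks, and it ranged from -2.26 at Scp2 -12.5 kb to 1.11 at Akr1d1 +71.0 kb. The median turned to -0.02 without WT replicate 1. When levels were centred on all peaks of a list instead of the shared ones, every difference moved by -0.48, the counts became 4 higher and 9 lower, and 11.5% and 63.4% of all shared peaks were then higher and lower.

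**Figure D2:**
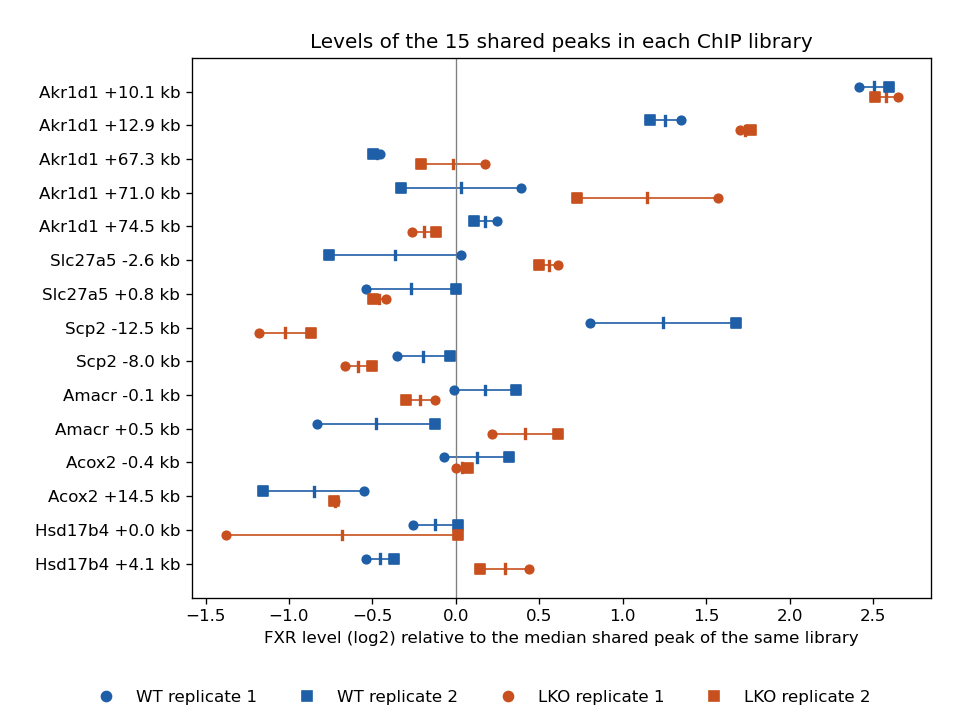
Level of each of the 15 shared peaks in the 4 ChIP libraries, as log2 relative to the median shared peak of the same library; circles are replicate 1, squares are replicate 2, upright bars are the mean of 2 libraries, blue is WT and orange is LKO. Blue and orange marks stand apart at 10 peaks and overlap at 5, and the Scp2 peak at -12.5 kb shows the widest gap.

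Akr1d1 encodes the Δ4-3-oxosteroid 5β-reductase that sets the shape of the BA ring. It lies at chr6:37529978-37574921 on the forward strand and had 8 WT and 5 LKO peaks, all 5 of them shared. Its strongest peak, 10091 bp downstream of the TSS in intron 3 of 8, had levels of 2.41 and 2.59 in WT replicates 1 and 2 and of 2.65 and 2.51 in LKO replicates 1 and 2, the order used for all values below. The libraries of both genotypes overlapped, and the means of 2.50 ± 0.13 in WT and 2.58 ± 0.10 in LKO differed by 0.07, less than the pooled SD of 0.11. It was the strongest peak of the 8 genes in both genotypes, at the percentile 98.8 of the WT list and 98.1 of the LKO list. This peak was also the single one of the set whose input value was high, at 1.89 compared with a 95th percentile of 1.85 over WT peaks. Its difference was -0.02 without WT replicate 1 but 0.16 without WT replicate 2 and 0.14 without LKO replicate 2, both past the pooled SD, so neither its direction nor its size is resolved.

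A further Akr1d1 peak, 12936 bp downstream of the TSS, was higher in LKO. Its levels were 1.35 and 1.16 in the WT libraries and 1.70 and 1.77 in the LKO libraries. The genotypes did not overlap, and the difference of 0.48 exceeded the pooled SD of 0.10. With all peaks as the reference this difference fell to 0.00. It too ranked high, at the percentile 92.4 in WT and 93.1 in LKO.

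Downstream of Akr1d1, past the end of the gene, lay 3 more shared peaks, which differed in both directions. The peak at +67.3 kb was at -0.45 and -0.50 in WT and at 0.18 and -0.21 in LKO. This difference of 0.46 exceeded the pooled SD of 0.19, but it was 0.27 without LKO replicate 1 and -0.02 with all peaks as the reference. The peak at +71.0 kb was at 0.39 and -0.33 in WT and at 1.57 and 0.73 in LKO. It gave the largest positive difference of the set, 1.11 with a pooled SD of 0.55, at the percentile 95.1 of all shared differences. Its replicates were far apart in both genotypes, and without LKO replicate 1 the difference was 0.69. The peak at +74.5 kb went the other way, from 0.24 and 0.11 in WT to -0.27 and -0.12 in LKO. This difference of -0.37 exceeded the pooled SD of 0.10. The 3 WT-only peaks of Akr1d1 lay at -19.2, +2.1 and +62.7 kb, with strength percentiles of 39.6, 3.97 and 28.1, so that the peak in intron 1, the one nearest the TSS, was the weakest of the whole set. It had levels of -2.39 and -1.52.

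Hsd3b7 encodes the 3β-hydroxy-C27-steroid dehydrogenase that acts on the ring before AKR1D1. It had no WT peak and 1 LKO peak, 8398 bp from its TSS and past its end. This peak was weak, at levels -0.79 and -1.14 in the LKO libraries and at the percentile 13.7 of the LKO list. An estimated 23.9 and 17.4 tags lay behind these values. Whether WT liver lacked binding here cannot be told from a list that holds called peaks only.

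Slc27a5 encodes the bile acyl-CoA synthetase, which prepares BAs for conjugation and recycles those that return to the liver unconjugated. It lies at chr7:12988346-12998192 on the reverse strand and had 4 WT and 2 LKO peaks. The upstream peak at -2.6 kb was at 0.03 and -0.76 in WT and at 0.61 and 0.50 in LKO. Both LKO libraries stood above both WT libraries, and the difference of 0.92 exceeded the pooled SD of 0.40. It was 0.52 without WT replicate 2, the shallow library. The peak nearest the TSS, at +0.8 kb in exon 1, was at -0.54 and 0.00 in WT and at -0.42 and -0.50 in LKO. Here the genotypes overlapped, and the difference of -0.19 was under the pooled SD of 0.27. It was -0.46, past that SD, without WT replicate 1 and 0.08 without WT replicate 2. The WT-only peaks at +2.1 and +4.9 kb, the latter in exon 4, were near the middle of the WT list at the percentiles 62.3 and 48.6. Neither had a partner in the LKO list.

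Amacr encodes the racemase that turns the side chain into the form the oxidase accepts, and its 2 shared peaks went in opposite directions. The gene lies at chr15:10981756-10996624 on the forward strand. The promoter peak, at -124 bp from the TSS, was at -0.01 and 0.36 in WT and at -0.13 and -0.30 in LKO. This gave a difference of -0.39, past the pooled SD of 0.21. Without WT replicate 2 it was -0.20, within that SD. The peak in intron 1, 506 bp downstream of the TSS, was at -0.83 and -0.13 in WT and at 0.22 and 0.61 in LKO. Its difference was 0.89, past the pooled SD of 0.40. Without WT replicate 1 this difference was 0.54. Both peaks lay within 1 kb of the same TSS, and the genotypes did not overlap at either. A WT-only peak in exon 3, at +3.1 kb, was weaker, at the percentile 20.9.

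Acox2 encodes the branched-chain oxidase that performs the first oxidation of the side chain, and both of its WT peaks had an LKO partner. The gene lies at chr14:8225511-8259019 on the reverse strand. The promoter peak, at -403 bp from the TSS, was at -0.07 and 0.32 in WT and at 0.00 and 0.07 in LKO. The difference of -0.09 was under the pooled SD of 0.20, and the genotypes overlapped. The peak in intron 11 of 14, at +14.5 kb, was at -0.55 and -1.16 in WT and at -0.72 and -0.73 in LKO. Its difference of 0.13 was also under the pooled SD, of 0.30. Both differences rest on the WT replicates. Without WT replicate 1 they were -0.28 and 0.43, each past its pooled SD, and without WT replicate 2 their direction turned, to 0.10 and -0.18.

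Hsd17b4 encodes the D-bifunctional protein, which hydrates the side chain and then dehydrogenates it before it is cut. It lies on chromosome 18, at 50128201-50196270 of the forward strand, and had 3 WT and 2 LKO peaks. The peak at the TSS, with its WT centre 22 bp downstream of it, was at -0.26 and 0.01 in WT and at -1.38 and 0.01 in LKO. The LKO replicates differed more here than at any other shared peak of the set, with an SD of 0.99, and the difference of -0.56 was under the pooled SD of 0.71. Without LKO replicate 1 the direction turned, to 0.14, and without LKO replicate 2 the difference was -1.26, past that SD. The intronic peak at +4.1 kb was at -0.54 and -0.37 in WT and at 0.44 and 0.14 in LKO. This peak was higher in LKO, by 0.75 with a pooled SD of 0.17. The WT-only peak at +0.7 kb ranked at the percentile 54.1.

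Scp2 encodes sterol carrier protein and the thiolase that makes the last cut of the side chain, and it held the largest difference of the set. It lies on the reverse strand of chr4 at 108043830-108144971 when predicted transcripts are counted. Its curated transcripts start farther downstream, and the authors' annotation placed the 3 peaks upstream of that TSS between genes, although they lie inside an intron of the longer predicted model. The peak at -12478 bp was at 0.80 and 1.68 in WT and at -1.18 and -0.87 in LKO. Both LKO libraries lay below both WT libraries, and the means of 1.24 ± 0.62 and -1.02 ± 0.22 differed by -2.26, with a pooled SD of 0.46. This was at the percentile 0.1 of all shared differences. An estimated 111 and 44.4 tags lay under the peak in the WT libraries, compared with 18.3 and 21.1 tags in the LKO libraries, although the latter were sequenced more deeply in total. Input values there were 1.14 for WT and -0.18 for LKO, neither above the 95th percentile of its list. Minus input, the log2 values were 4.67 and 6.07 in WT and 4.04 and 4.16 in LKO. Both WT values stayed above both LKO values, but the gap was narrower than that in level. Within the lists the peak ranked at the percentile 92.3 in WT and 10.6 in LKO.

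The neighbouring Scp2 peak at -8.0 kb was also lower in LKO, at -0.35 and -0.04 in WT and at -0.66 and -0.51 in LKO. Its difference of -0.39 exceeded the pooled SD of 0.18 and was -0.23 without WT replicate 2. A WT-only peak at -5.8 kb had levels of -1.79 and 0.00, and its replicates were the farthest apart among the WT-only peaks. All 3 Scp2 sites were therefore lower in LKO or listed in WT alone.

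**Figure D3:**
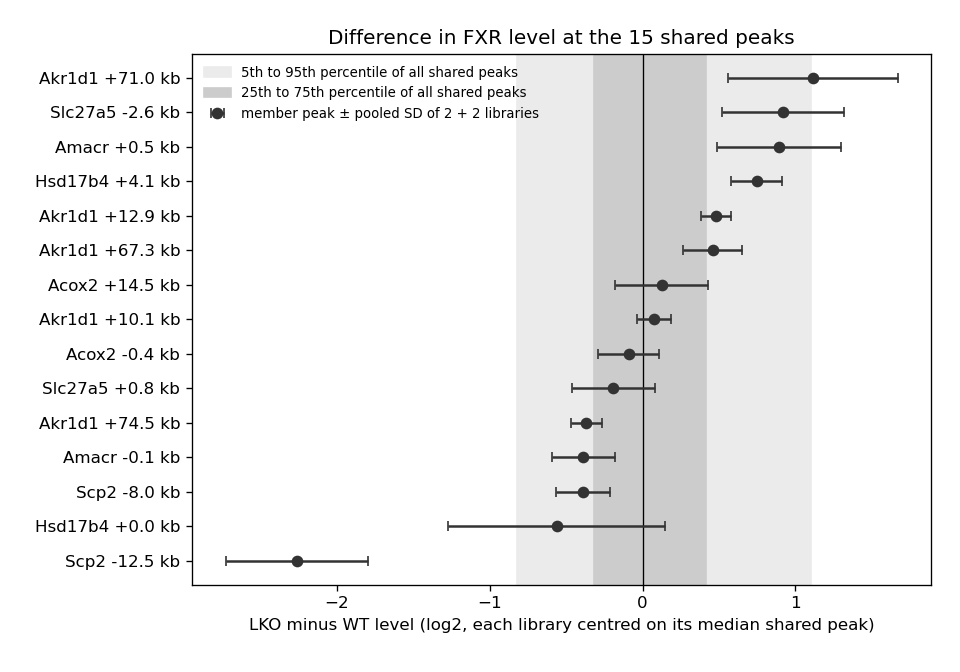
LKO minus WT difference in level (log2) at the 15 shared peaks, in order of size; points are the difference of the means of 2 and 2 libraries, bars are the pooled SD, and grey bands are the 25th to 75th and the 5th to 95th percentiles of all 9918 shared peaks. Scp2 -12.5 kb lies outside the wider band on the low side and Akr1d1 +71.0 kb just past it on the high side.

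Baat encodes the acyltransferase that couples BAs to taurine or glycine, and it had 3 WT peaks and 0 LKO peaks. The gene lies at chr4:49489416-49507915 on the reverse strand. The peak in intron 1, at chr4:49503734-49503944 and 2719 bp from the TSS, had levels of -2.09 and -1.27. Both other peaks lay past the 3′ end of the gene, inside the predicted transcript Gm33009. The peak at chr4:49486342-49486552 had levels of -1.33 and -0.37, and that at chr4:49485530-49485740 had levels of -0.72 and -0.80. All 3 peaks were below the median of the WT list, at the percentiles 13.3, 43.5 and 46.9. At most an estimated 38.8 tags lay behind them in WT replicate 1 and 10.7 tags in WT replicate 2. WT-only peaks of the set had a lower median strength than shared ones, as over the whole WT list, but some ranked above the list median. The reason for the absence of Baat from the LKO list was not tested.

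The peak caller scored the pooled libraries in tags per 10000000. These scores were lower in LKO at most shared peaks of the enzyme genes, as in the median over all shared peaks. The LKO score was a median of 0.493 of the WT score at the 15 shared peaks of the enzyme genes, compared with 0.507 over all shared peaks. The ratio ran from 0.127 at Scp2 -12.5 kb, where the score went from 75.3 to 9.56, to 1.06 at Amacr +0.5 kb, where it went from 23.3 to 24.8. At the strongest peak, Akr1d1 +10.1 kb, the score was 202.7 in WT and 109.3 in LKO, a ratio of 0.539. On this scale 1 of the 15 peaks was above its WT score. The same share over all shared peaks was not counted, so this count cannot be set against the whole list. The scores have no replicate. Over all shared peaks the LKO scores were also lower in the median, which the level relative to the shared peaks removes by its construction.

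**Figure D4:**
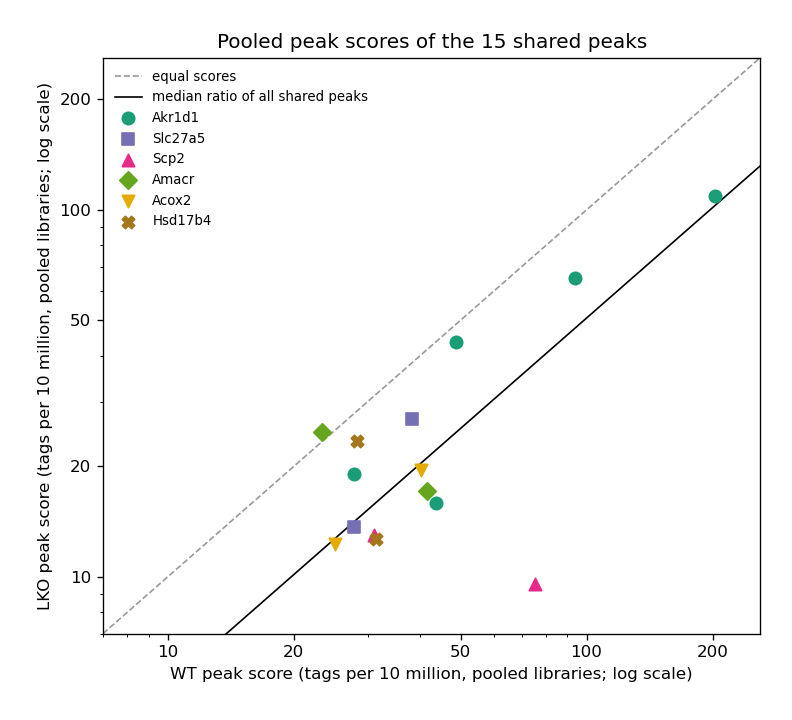
Peak score of the pooled LKO libraries against that of the pooled WT libraries at the 15 shared peaks, in tags per 10000000 on log axes; colours and shapes are genes, the dashed line is equality and the solid line is the median ratio of all shared peaks. Points lie on both sides of the solid line, the Scp2 peak at -12.5 kb lies far below it, and a single Amacr peak lies above equality.

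IR1 matches were more frequent in the peaks of the enzyme genes than in the whole lists, with wide intervals. Within 100 bp of the peak centre, a match with at most 2 mismatches in the 12 scored bases was found in 7 of 26 WT peaks (26.9%, 13.7 to 46.1), compared with 11.8% of all WT peaks and 0.893% of windows 2 kb away. In LKO it was found in 6 of 16 peaks (37.5%, 18.5 to 61.4), compared with 16.2% of all LKO peaks and 0.872% of windows 2 kb away. The intervals count sites of 1 gene, or of copies of 1 repeat, as independent. Akr1d1 held 3 of these sites, and its site at +12.9 kb and the Scp2 site lay in copies of 1 repeat element, described below. Beside those in the sequences shown above, each is read on the forward strand with capitals for the letters that fit IR1, and 4 of them are shown, for the Akr1d1 peaks with the largest positive and the only negative difference, the start of Slc27a5 and Baat.
Akr1d1 +71.0 kb, chr6:37601202-37601214: AGGTCAtTGAaCa
Akr1d1 +74.5 kb, chr6:37604673-37604685: AGGTCtcTGACCT
Slc27a5 +0.8 kb, chr7:12997367-12997379: AGGgCAcTcACCT
Baat +20.1 kb, chr4:49486423-49486435: AtGTCccTGACCT

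Other liver motifs were searched on both strands in the same windows. DR1 with at most 2 mismatches was found in 4 of 26 WT peaks (15.4%), compared with 12.8% of all WT peaks, and in 3 of 16 LKO peaks (18.8%), compared with 11.9%. The strongest peak, Akr1d1 +10.1 kb, had DR1 with 2 mismatches and no IR1 under 4 mismatches, and the Acox2 promoter peak had DR1 with 1 mismatch. DR1 and IR1 share the AGGTCA letters, so that a window can match both. An exact AGGTCA was in 57.7% of WT and 56.2% of LKO member peaks, compared with 40.3% and 41.3% of all peaks. TGTTTAC, the FOXA motif, was in 15.4% compared with 6.71% of WT peaks, and TTGCNNAA, the C/EBP motif, was in 15.4% compared with 16.5%. TTCNNNGAA, the motif of STAT factors and BCL6, was in 1 WT peak (3.85% compared with 6.56%) and in 0 LKO peaks (6.39% of all LKO peaks). CAAGGTCA, the NR5A2 motif, was in 0 peaks of either list, compared with 4.26% and 3.98% of all peaks. RefSeq promoter sequence of GRCm38.p6, taken around the start of each gene, was at hand for Akr1d1, Hsd3b7, Scp2 and Acox2. None of these promoters held IR1 with at most 2 mismatches, as 1.14% of all 32851 promoters did, and 1 Acox2 promoter held DR1, as 3.86% did.

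The Akr1d1 peak at +12.9 kb and the Scp2 peak at -12.5 kb proved to be copies of the same mobile element. This was noticed after the sequences and levels had been seen. The authors' annotation names both RLTR13D3A1, a long terminal repeat (LTR) of the ERVK family of endogenous retroviruses. In a local alignment the WT peaks matched on opposite strands over 151 aligned bases, of which 141 (93.4%) were identical, and the IR1 matches fell on the same aligned positions. The site with 20 bases on either side is shown on the strand on which the copies align, with all 13 bases of the site in capitals.
Scp2 -12.5 kb, forward strand, chr4:108130990-108131002: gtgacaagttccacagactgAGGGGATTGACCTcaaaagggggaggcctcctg
Akr1d1 +12.9 kb, reverse strand, chr6:37543097-37543109: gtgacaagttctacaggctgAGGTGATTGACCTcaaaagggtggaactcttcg
The Scp2 copy had 2 mismatches to IR1 and the Akr1d1 copy had 1. They ranked alike in WT, at the percentiles 92.4 (Akr1d1) and 92.3 (Scp2), whereas the LKO minus WT difference was 0.48 at the Akr1d1 copy and -2.26 at the Scp2 copy. Over both lists, 28 WT and 21 LKO peaks carried this repeat name, and 19 of the 28 WT peaks held an IR1 match (67.9%). Of the 15 of these WT peaks with an LKO partner, LKO was higher by more than the pooled SD at 8 and lower at 2, with a median difference of 0.30, and the Scp2 copy had the lowest difference of all 15. The reads had been kept only where they aligned uniquely, and the part that this plays in reads over repeat copies was not tested.

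LTR names recurred in the set. The authors' annotation gave a repeat name to 9 of 26 WT peaks (34.6%, compared with 17.3% of all WT peaks) and an LTR name to 6 (23.1%, compared with 5.54%). In LKO these were 6 of 16 (37.5%, compared with 14.9%) and 5 (31.2%, compared with 4.48%). Besides RLTR13D3A1, the name RMER5 was given to Akr1d1 +67.3 kb and Scp2 -8.0 kb, ORR1D1 to Akr1d1 +74.5 kb and RLTR19-int to Slc27a5 -2.6 kb. The name depends on the exact centre of a peak, and 2 shared WT peaks with a repeat name had an LKO partner without one. Bases marked as repeats in the reference made up 57.3% of the Akr1d1 and 64.0% of the Scp2 WT peak named RLTR13D3A1. In the other WT peaks with an LTR name they made up 9.95% to 21.8%. Peaks of 1 gene share a locus, so these shares carry no test.

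The peaks of the enzyme genes lay closer to the TSS than the average peak. The median distance was 5314 bp in WT, compared with 13906 bp over all WT peaks, and 8201 bp in LKO, compared with 14093 bp. Promoter peaks were 3 of 26 in WT (11.5%, compared with 11.4%), at Amacr, Acox2 and Hsd17b4, and the same 3 promoters carried a peak in LKO. Exonic peaks were 3 of 26 in WT (11.5%, compared with 2.78%) and 0 of 16 in LKO (3.04% of all LKO peaks). Of the 3, the peak at Slc27a5 +0.8 kb had an LKO partner, whose centre lay 23 bp away in intron 1. At the promoter peaks, the LKO minus WT difference was -0.39 at Amacr, past the pooled SD. It was -0.09 at Acox2 and -0.56 at Hsd17b4, both within the pooled SD.

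FXR peaks were also found at most other genes of the pathway. Over all protein-coding genes, the share with a peak was 34.6% in WT and 26.5% in LKO. For the ring hydroxylases, 4 of 5 genes had a WT and an LKO peak, and LKO was higher at 3 and lower at 3 of 10 shared peaks, where 33.7% and 29.4% of all shared peaks were higher and lower. Cyp27a1, which begins side-chain oxidation in mitochondria, had a top peak at 1.96 ± 0.01 in WT and 1.92 ± 0.08 in LKO. The top peak of Cyp8b1, the 12α-hydroxylase, was lower in LKO, at 0.16 ± 0.12 compared with -0.67 ± 0.08, as was that of Cyp7b1, an oxysterol hydroxylase, at 0.06 ± 0.02 compared with -0.13 ± 0.05. For the peroxisomal partners, 7 of 9 genes had a WT and 6 an LKO peak, and LKO was higher at 7 and lower at 2 of 13 shared peaks, with a median difference of 0.26 against 0.03 over all shared peaks. The thiolase gene Acaa1b was at 1.51 ± 0.19 in WT and 1.77 ± 0.27 in LKO, and Abcd3, which carries BA intermediates into the peroxisome, was at 0.39 ± 0.06 and 0.38 ± 0.19. The top peak of Pex5, the import receptor, was at 0.38 ± 0.12 in WT and 0.91 ± 0.05 in LKO. For taurine supply, 3 of 3 genes had peaks in both lists, and LKO was higher at 6 and lower at 3 of 13 shared peaks. The taurine transporter gene Slc6a6 had a stronger top peak than any of the 8 enzyme genes, at 2.97 ± 0.24 in WT and 2.97 ± 0.03 in LKO, while Csad, which makes hypotaurine, was lower in LKO, at 1.36 ± 0.31 compared with 0.70 ± 0.14. Cdo1, which acts before Csad, was at 0.64 ± 0.36 in WT and 1.00 ± 0.26 in LKO. The paralogs of Baat had 1 WT peak, at Acnat1, and 0 LKO peaks. Akr1c6 and Akr1c14, which reduce the 3-oxo group after AKR1D1, had 3 WT peaks each and 0 LKO peaks. The strongest of these ranked at the percentiles 30.5 and 41.6 of the WT list, of which 49.5% had an LKO partner.

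The strongest Akr1d1 peak had close matches elsewhere in the genome. Over the 4 libraries and the strongest shared peak of 5922 other genes, the nearest by Euclidean distance of levels were Cmtm8 at 0.06, Napa at 0.12 and Mir6389 at 0.12. These distances describe likeness of level in 4 libraries only.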

How the data were processed

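FXR ChIP-seq of mouse liver was analysed from 1 deposited peak table per genotype. The authors crosslinked liver with DSG and formaldehyde, immunoprecipitated FXR (antibody E4B8P) and sequenced single-end reads. Unique alignments to mm10 were kept, and peaks were called with HOMER against input after both ChIP libraries of a genotype had been pooled. The submitters' processing notes name Bowtie 1.2 and HOMER 4.10. The authors then compared ChIP with input in DESeq2 and kept enriched peaks. The fold change and p-value columns of that comparison were not used. The library columns are headed as tag counts, but the deposited values are fractional and partly negative, so they were taken as regularized log2 tags, fitted by table, which shrinks low values. The deposited peak score is a signal in tags per 10000000 of the pooled libraries. The deposited focus ratio is a fraction, the share of tags near the peak centre, with medians of 0.794 in WT and 0.843 in LKO for the enzyme genes against 0.815 and 0.817 over all peaks. All 6 samples were grouped by their labels, and 0 columns of sample values were left unused.

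Shared peaks overlapped by at least 1 bp, each with its nearest partner. Strength is the mean log2 value of 2 ChIP libraries, ranked as a percentile of its table. Tags were estimated as the antilog of the value times the library total over the mean total of the table, and at the peaks of the enzyme genes held a median of 43.8 and 11.0 in the WT libraries and 39.6 and 37.1 in the LKO libraries. Wilson intervals (95%) cover counting over peaks only. Motifs were sought within 100 bp of peak centres in GRCm38.p6, where RefSeq TSS positions gave the authors' distances to within 2 bp at 26 of 26 WT and at 16 of 16 LKO peaks. Repeat copies were aligned locally with Biopython 1.88. Computation used pysam 0.24.0, matplotlib 3.10.9, scipy 1.17.1, pandas 2.3.3 and numpy 2.4.6 under Python 3.11.15, and the overlap, level and motif steps were first tested on simulated data. All peaks of the 8 genes are covered: library values are given for the strongest peak of each gene, the one nearest its TSS and each shared peak past the pooled SD. Up to 3 other pathway genes are named per list by their strongest WT peak, and the 3 genes nearest in level to the top peak. The genes, lists and alternatives were chosen with earlier results of these data known.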

Additional observations from a re-analysis of the deposited data

How the results depend on the processing

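Of 134 alternatives, 108 were counted as the same, 25 moved the result and 1 reversed it, where a reversal was counted only for a peak past the pooled SD. A single peak counted as the same could still change its call against the pooled SD. Without a single library, the Amacr promoter peak came to lie within it. The strongest Akr1d1 peak, the Slc27a5 peak nearest the TSS, both Acox2 peaks and the Hsd17b4 peak at the TSS came to lie past it. The median and 5 single peaks within the pooled SD also changed sign without a single library, and the median did so with all peaks as the reference. Peaks at or above the median strength of their list numbered 16 in WT and 9 in LKO, and 100% of those LKO peaks were shared. The same share over all LKO peaks of that strength was not counted. This 100% therefore cannot be set against the whole list or read as a trait of the enzyme genes. The median difference was 0.0065 when centred on the mean of shared peaks, -0.40 when centred on all peaks of a table, 0.48 over the 9 shared peaks that were strong in both lists (a choice that itself drops peaks low in LKO), and between -0.0158 and 0.128 without single libraries. With all peaks as the reference, 9 peaks were lower in LKO and the Akr1d1 peak at +67.3 kb reversed to -0.0175, since this reference moved each difference by -0.48. With at most 1 mismatch, IR1 was found in 7.69% of WT and 12.5% of LKO peaks (2.46% and 3.55% of all peaks), and with at most 3 in 46.2% and 56.2% (36.0% and 43.6%). Without single libraries, 6 to 7 peaks were higher and 3 to 6 lower. No paired analysis was possible because no value comes from a test and no label ties a WT replicate to an LKO replicate beyond its number. Depth limits WT replicate 2 most, in which peaks of the enzyme genes held as few as 4.29 estimated tags, and a peak in 1 list only may be bound below the calling threshold in the other.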

Other observations

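Further FXR peaks lay within Scp2 but were named by the authors for Mir6397, a microRNA gene whose start is nearer. These were 6 WT and 3 LKO peaks, and the 3 LKO peaks were all shared. At chr4:108065555, the start of the WT peak, the level was 0.32 ± 0.42 in WT and 0.11 ± 0.26 in LKO. These differed by -0.21, with a pooled SD of 0.35. At chr4:108066712 it was 0.23 ± 0.54 in WT and 0.24 ± 0.65 in LKO. At chr4:108068239 it was -0.58 ± 0.20 in WT and -0.70 ± 0.04 in LKO. These differed by -0.11, with a pooled SD of 0.14. All 3 lay within the pooled SD, unlike the Scp2 peaks upstream of the curated TSS.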
